A study of Mus musculus with 16 samples.

Results

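Chromatin accessibility was compared between round spermatids of Scml2-KO mice and round spermatids of wild-type mice, with 2 ATAC-seq libraries of each genotype out of 16 libraries in the series. Both genotypes were C57BL/6 adults and the cells came from testis. The nature of the Scml2 deletion, the purification method and the number of animals behind each library are not stated in any source used, so the spread between libraries of a genotype may be technical. Each library started from around 1000000 round spermatids, was size-selected on a gel between 250 and 500 bp and was read as 75 bp single reads. The comparison used the 4 peak lists, in which a peak is a stretch of DNA where transposase cut more often than the background of that library. A promoter peak is one that reaches within 1 kb of a transcription start site (TSS), and a distal region is a merged peak with no TSS within 1 kb. Presence of a peak was compared between genotypes in lists of equal length, the 27105 peaks of highest significance in each library, and in the lists as deposited.

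SCML2 is a germline-specific Polycomb-group protein encoded on the X chromosome, and it interacts with the PRC1 complex that ubiquitinates histone H2A. It is known for silencing genes of spermatogonia and of somatic lineages when germ cells enter meiosis, and for its role on the sex chromosomes. Round spermatids are the haploid cells that follow meiosis. They still carry nucleosomes, and they later elongate and exchange most of their histones for transition proteins and protamines. ATAC-seq on bulk cells reads a site that is open in fewer cells and a site that is less open in each cell in the same way, and these cannot be told apart here.

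The promoters on which the comparison turned are shown first, as the 250 bases before the start site on the gene's own strand, from RefSeq on GRCm38.p6, the assembly that the mm10 coordinates of the files refer to. Capitals mark each CpG dinucleotide. Over 32851 RefSeq promoters, a window of this length held a median of 6 CpGs (quartiles 2 and 16) at a median GC content of 52.4%. Lbh and Stbd1 had a peak over this window in both KO libraries and in neither WT library. The Lbh window (chr17:72918055-72918304, plus strand) held 21 CpGs and the Stbd1 window (chr5:92602801-92603050, plus strand) held 24.
Lbh: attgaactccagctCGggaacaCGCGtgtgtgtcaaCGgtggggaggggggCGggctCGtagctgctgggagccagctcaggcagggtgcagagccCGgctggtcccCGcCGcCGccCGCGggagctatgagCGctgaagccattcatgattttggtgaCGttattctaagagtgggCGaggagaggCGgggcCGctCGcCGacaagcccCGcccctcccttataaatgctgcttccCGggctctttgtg
Stbd1: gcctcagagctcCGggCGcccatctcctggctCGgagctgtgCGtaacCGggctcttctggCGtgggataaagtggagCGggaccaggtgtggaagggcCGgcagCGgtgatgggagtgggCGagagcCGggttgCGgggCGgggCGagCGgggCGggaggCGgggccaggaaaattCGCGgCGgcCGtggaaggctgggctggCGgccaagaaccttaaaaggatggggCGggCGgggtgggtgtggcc
Khdrbs2, Bai3 (Adgrb3 in RefSeq) and 4921515E04Rik had the opposite pattern, a peak over the window in both WT libraries and in neither KO library. The Khdrbs2 window (chr1:32172472-32172721, plus strand) held 21 CpGs, the Bai3 window (chr1:25829708-25829957, minus strand) held 14, and the 4921515E04Rik window (chr15:18369628-18369877, minus strand) held 1, at a GC content of 36.8%.
Khdrbs2: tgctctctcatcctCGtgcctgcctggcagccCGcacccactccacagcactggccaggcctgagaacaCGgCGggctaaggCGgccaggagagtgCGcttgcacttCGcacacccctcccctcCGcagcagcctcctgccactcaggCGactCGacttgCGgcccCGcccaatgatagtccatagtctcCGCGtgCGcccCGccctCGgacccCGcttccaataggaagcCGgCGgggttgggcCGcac
Bai3: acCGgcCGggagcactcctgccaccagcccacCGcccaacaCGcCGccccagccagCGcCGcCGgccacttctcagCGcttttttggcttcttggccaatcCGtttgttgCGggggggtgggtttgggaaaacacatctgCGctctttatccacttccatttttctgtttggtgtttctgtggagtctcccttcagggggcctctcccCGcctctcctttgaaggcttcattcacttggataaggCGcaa
4921515E04Rik: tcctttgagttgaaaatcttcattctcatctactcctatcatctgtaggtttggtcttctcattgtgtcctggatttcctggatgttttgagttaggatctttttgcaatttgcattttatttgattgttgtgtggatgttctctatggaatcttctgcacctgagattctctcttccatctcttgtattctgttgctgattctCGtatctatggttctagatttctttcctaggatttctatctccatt
Pcdh10, Cadm2 and Cypt12 had a peak over the window in all 4 libraries and a lower fold enrichment in KO. The Pcdh10 window (chr3:45378148-45378397, plus strand) held 22 CpGs, the Cadm2 window (chr16:67620909-67621158, minus strand) held 10, and the Cypt12 window (chr3:17948194-17948443, plus strand) held 0.
Pcdh10: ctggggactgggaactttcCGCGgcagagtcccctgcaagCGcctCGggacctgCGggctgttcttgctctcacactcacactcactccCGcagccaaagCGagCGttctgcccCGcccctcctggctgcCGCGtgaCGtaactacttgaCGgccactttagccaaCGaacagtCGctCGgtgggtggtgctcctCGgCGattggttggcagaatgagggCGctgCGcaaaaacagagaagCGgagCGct
Cadm2: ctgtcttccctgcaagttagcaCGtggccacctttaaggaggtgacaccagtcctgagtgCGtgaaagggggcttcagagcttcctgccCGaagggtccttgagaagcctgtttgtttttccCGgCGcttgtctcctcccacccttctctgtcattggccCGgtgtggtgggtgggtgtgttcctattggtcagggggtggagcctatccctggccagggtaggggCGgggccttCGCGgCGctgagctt
Cypt12: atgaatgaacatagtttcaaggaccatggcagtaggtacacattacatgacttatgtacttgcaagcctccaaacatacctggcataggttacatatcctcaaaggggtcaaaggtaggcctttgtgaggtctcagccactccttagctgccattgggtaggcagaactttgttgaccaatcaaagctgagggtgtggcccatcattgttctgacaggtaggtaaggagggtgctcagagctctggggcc
The 8 windows thus ran from CpG-dense to CpG-free, and promoters of both kinds were among those with a peak in WT only or with a lower value in KO. Those with a peak in KO only were not all CpG-dense either. The Oxct2a window, not printed, held 3 CpGs, with a peak in both KO libraries and in neither WT library. GC content and CpG number were not compared between sets of genes, because promoter sequence was at hand for 77.8% of the 20227 autosomal genes.

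The 4 libraries differed in how many peaks they held more than the genotypes did. KO replicates 1 and 2 had 164060 and 27105 peaks, and WT replicates 1 and 2 had 52379 and 31070 peaks. Read depth is unknown, since the lists give no total. At equal length, 36.3% and 46.9% of the peaks in KO and 39.7% and 43.0% in WT lay within 1 kb of a TSS, and the difference of the means was 0.28 percentage points (41.6% ± 7.47 in KO and 41.4% ± 2.27 in WT, SD, n = 2 each; exact permutation test, two-sided p = 1.0). With 2 libraries against 2 the smallest exact p is 0.333, so the counts of presence below are descriptions. The overlap of equal lists, as shared over all merged regions, was 0.425 between the KO libraries and 0.485 between the WT libraries. It was 0.499 and 0.436 between KO and WT libraries of the same replicate number, 1 and 2. In equal lists, 194 genes had a promoter peak in both replicate 1 libraries and in neither replicate 2 library, and 577 the reverse, which is more than the counts by genotype given next. Scml2 itself had a promoter peak of 4.98-fold enrichment in WT replicate 1 and none in KO replicates 1 and 2 or WT replicate 2, so this locus does not check the labels.

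The promoters that define round spermatids were open in both genotypes. Of 16 round spermatid markers, 16 and 13 had a promoter peak in KO and 16 and 14 in WT. Tnp1, a transition protein, had a fold enrichment of 27.2 and 12.6 in KO and 13.3 and 13.5 in WT. Acrv1, an acrosomal protein, had 16.3 and 5.20 in KO and 9.41 and 7.89 in WT. All 9 pachytene markers had a peak in KO replicate 1 and 7 in KO replicate 2, with 9 in both WT libraries. Of 6 macrophage markers, 1 and 0 had a peak in KO and 1 and 0 in WT, and Csf1r, Emr1, Ptprc and Cx3cr1 had none in any library. Of 7 Leydig markers, 0 and 1 had a peak in KO and 0 in either WT library, with Star, Cyp17a1, Cyp11a1 and Hsd3b1 without a peak throughout. Markers of other cells did have peaks. Of 8 Sertoli markers 5 and 4 had one in KO and 2 and 3 in WT, and of 8 peritubular markers 6 and 3 in KO and 4 and 1 in WT. Of 6 endothelial markers it was 2 and 1 in KO and 2 and 0 in WT, and of 7 spermatogonial markers 6 and 4 in KO and 4 and 5 in WT. For scale, the highest fold enrichments at promoters were at the ribosomal RNA repeat unit Rn45s, with 48.8 and 65.4 in KO and 57.6 and 68.4 in WT, where many copies share reads, at Zswim6, with 43.5 and 32.5 in KO and 42.6 and 39.1 in WT, and at Ankrd50, with 40.9 and 32.5 in KO and 47.6 and 37.9 in WT. At distal regions they were at a pair of neighbouring intergenic sites labelled with B230118H07Rik, the higher with 48.8 and 65.8 in KO and 82.5 and 58.2 in WT, and at a site labelled with Lmbrd1, with 43.5 and 56.7 in KO and 53.7 and 48.5 in WT.

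Promoters that were open in 1 genotype only were few, and in equal lists they were about as many in each direction. Of 13172 autosomal genes with a promoter peak in any of the 4 equal lists, 168 (1.28%) had one in both KO libraries and neither WT library, and 185 (1.40%) had one in both WT libraries and neither KO library. In the deposited lists the same patterns held for 480 (3.20%) and 83 (0.554%) of 14989 genes. The deposited list of KO replicate 1 was 3.13 times as long as that of WT replicate 1. Counted as promoter regions, they were 654 (3.14%) in KO only and 103 (0.495%) in WT only of 20823 as deposited, and 182 (1.33%) and 198 (1.45%) of 13680 in equal lists. Requiring both kinds of list left 69 genes with a peak in KO only and 39 with a peak in WT only. A total of 9023 genes had a promoter peak in all 4 equal lists.

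**Figure D1:**
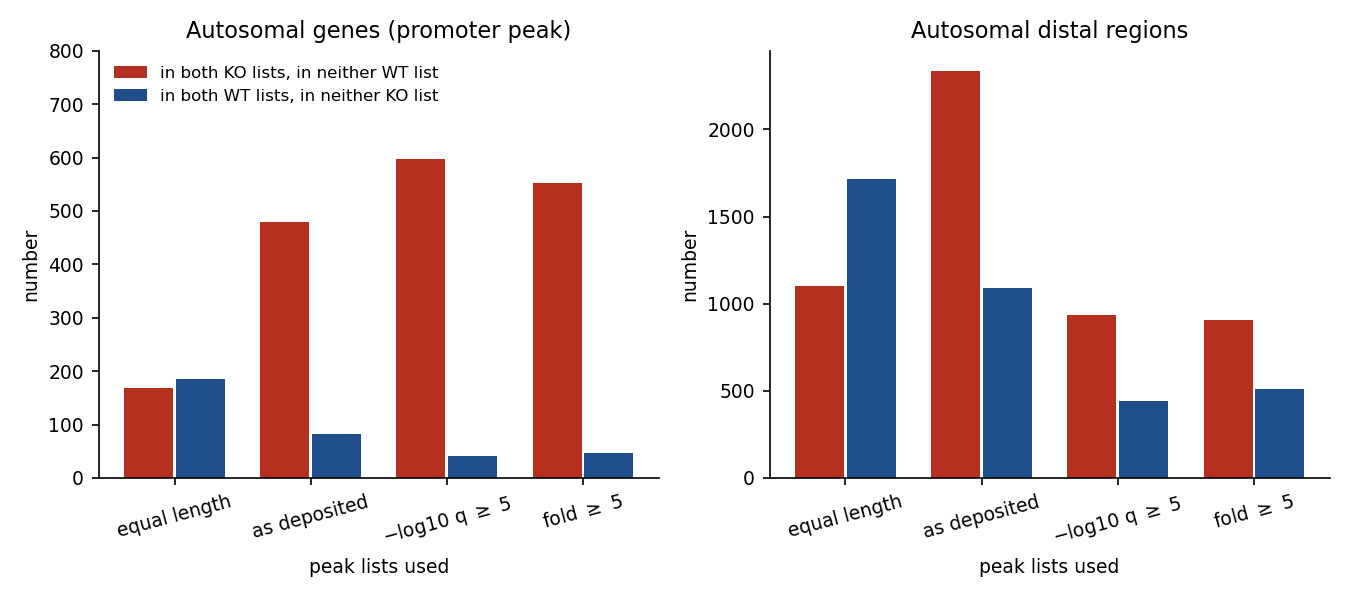
Number of autosomal genes (left) and distal regions (right) with a peak in both libraries of 1 genotype and in neither of the other, for equal-length lists, deposited lists, and lists held to a threshold of 5 on either −log10 q or fold enrichment. For genes, equal lists gave 168 in KO only and 185 in WT only, while deposited lists gave 480 and 83; for distal regions the counts were 1101 and 1713 in equal lists and 2335 and 1093 in deposited lists.

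Among the 69 genes with a promoter peak in KO only, the highest was Angptl6, which encodes a secreted angiopoietin-like protein. Its peak had a fold enrichment of 17.0 and 13.0 in KO and was missing from both WT lists. With a 500 bp window, or with an overlap of at least 100 bp required, Angptl6 lost this pattern. No library had a peak over the 250 bases before its start site. Lbh, a transcription cofactor of limb and heart development, had 10.6 and 9.96 in KO and none in WT. The AMPK-related kinase Nuak1 had 9.84 and 8.23 in KO and none in WT. The next by rank were the annexin Anxa2 (11.4 and 7.36 in KO), the glycogen-binding protein Stbd1 (10.97 and 7.36 in KO) and the zinc-finger protein Zfp827 (11.7 and 7.36 in KO). Steap3, a ferrireductase, had 8.33 and 6.93 in KO, and the fibroblast growth factor receptor Fgfr2 had 13.2 and 6.50 in KO. Oxct2a, a ketone-body enzyme of haploid germ cells with a closely similar copy, had 9.84 and 6.50 in KO, and the metalloproteinase Adam19 had 8.33 and 6.06 in KO.

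These promoters were not closed elsewhere in the germline. Each of the 10 had a promoter peak in 7 or 8 of the 8 spermatogonial libraries of the series, 4 of Scml2-KO and 4 of wild type. Fgfr2 and Adam19 had a peak in all 4 pachytene spermatocyte (PS) libraries, and Steap3 had one in both KO libraries of that stage (3.12 and 6.52) and in neither WT library. Of the 69 genes, 24 (34.8%) had a peak in all 8 spermatogonial libraries and 8 (11.6%) in none, against 49.9% and 22.1% of all autosomal genes. Of the 39 genes with a peak in WT only, 16 (41.0%) had one in all 8 and 13 (33.3%) in none. A peak in spermatogonia was thus not particular to the genes with a peak in KO only. Of the 5238 genes with no peak in any deposited round spermatid list, 4.14% had one in all 8 spermatogonial libraries.

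Among the 39 genes with a promoter peak in WT only, Khdrbs2, an RNA-binding splicing regulator, ranked first. It had no peak in KO, against 16.1 and 8.26 in WT. The adhesion receptor Bai3 had none in KO, against 7.75 and 9.77 in WT. Slitrk5, a synaptic adhesion protein, had none in KO, against 7.75 and 6.76 in WT, and the axon guidance receptor Robo2 had none in KO, against 6.64 and 7.14 in WT. Nox4, an NADPH oxidase, had none in KO, against 8.86 and 6.39 in WT. Of the 10 of highest rank, 4 were the transcripts Gm15881, 4933413L06Rik, 4921515E04Rik and 4930539N22Rik, with values between 6.01 and 9.41 in WT. Khdrbs2, Bai3, Slitrk5, Robo2 and Nox4 had a peak in all 8 spermatogonial libraries, whereas the 3 Rik transcripts had one in 0 of 8 and Gm15881 in 4.

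**Figure D2:**
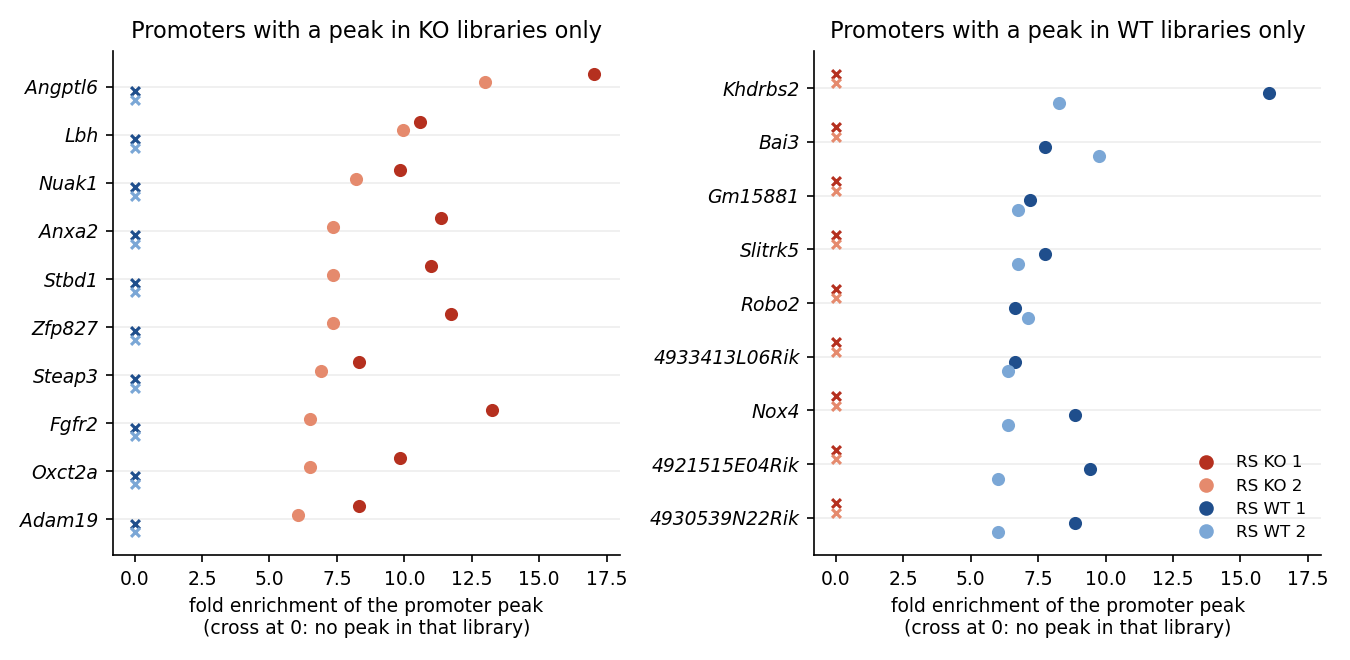
Fold enrichment of the promoter peak in each library for the 10 genes of highest rank with a peak in KO only (left) and for 9 of the 10 with a peak in WT only (right); a cross at 0 means no peak in that library. The values in KO run from 6.06 to 17.0 on the left and those in WT from 6.01 to 16.1 on the right, and the other genotype has crosses throughout, which is how the genes were selected.

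The number of neighbouring genes was lower for promoters with a peak in WT only. Genes with a peak in KO only in both kinds of list had a median of 13 TSSs within 500 kb (quartiles 7 and 28), genes with a peak in WT only had 3 (quartiles 2 and 5), and all autosomal genes had 17 (quartiles 9 and 28). In equal lists alone the median was 12.5 for KO only (quartiles 8 and 20.25) and 8 for WT only (quartiles 3 and 20), and the ranges between quartiles overlapped.

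The genes of spermiogenesis showed little difference in presence. Of 17 genes of spermatid chromatin compaction, such as transition proteins, protamines and testis histone variants, 17 and 16 had a promoter peak in KO and 17 and 16 in WT, with none open in 1 genotype only. The histone variant Hist1h2ba had 29.1 and 11.3 in KO and 18.3 and 13.5 in WT, a log2 difference of -0.12, and Ing2 had 34.1 and 21.2 in KO and 27.7 and 23.7 in WT. The log2 differences here and below are KO minus WT after each library was centred on its median, with limma and Benjamini-Hochberg adjustment over 14502 regions. Of the 211 list members in that test, 0 passed an adjusted p of 0.05 (limma; at an unadjusted p under 0.05 it gave 5 higher and 14 lower). Of all 10008 genes in the test, only 1 passed as higher and 19 as lower, so 0 of 211 sets these lists apart in no way. At an unadjusted p under 0.05, limma gave 108 higher and 327 lower of all 9123 promoter regions. Genes in 1 merged region, such as Prm2, Prm3 and Tnp2, share its log2 difference (0.49) and are not separate tests. As deposited, 70.7% and 57.8% of all autosomal genes were open in KO and 60.8% and 56.8% in WT. Of 20 transcription regulators of spermatids, 20 and 19 were open in KO and 18 and 18 in WT as deposited. The equal lists held 18 and 19 of these regulators in KO and 18 and 18 in WT. Among them Rfx2, a regulator of ciliary and spermatid genes, had 34.8 and 21.7 in KO and 35.99 and 30.4 in WT (log2 difference -0.59, adjusted p = 0.957 by limma), Sox30, another spermatid regulator, had 36.7 and 20.4 in KO and 29.3 and 23.7 in WT, and Rfx4 had 6.43 and 3.46 in KO and no peak in WT in the deposited lists. Of 22 acrosome and fusion genes, 22 and 14 were open in KO and 19 and 18 in WT, and of 32 genes of the tail, head and energy supply 29 and 18 were open in KO and 28 and 23 in WT. In both lists KO replicate 1 had the most and KO replicate 2 the fewest, so the groups overlapped. The acrosomal genes Pcsk4, a proprotein convertase (26.9 and 17.8 in KO and 23.3 and 20.7 in WT), and Spaca1 (34.4 and 10.4 in KO and 26.0 and 19.9 in WT) were open throughout, as were the axonemal Spag16 (31.4 and 11.3 in KO and 29.9 and 19.5 in WT) and the tail fibre gene Odf2 (24.6 and 12.1 in KO and 22.1 and 15.8 in WT). Hyal5, a sperm hyaluronidase, had 6.81 and no peak in KO and 7.20 and 4.88 in WT.

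Genes of other germ cell stages and of chromatin were mostly open in all 4 lists as well. Of 30 meiotic prophase genes, 28 and 25 were open in KO and 28 and 26 in WT, of 31 genes of lamins, nuclear envelope and heterochromatin 28 and 27 in KO and 27 and 27 in WT, and of 19 genes of the DNA damage response 18 and 16 in KO and 18 and 17 in WT. Sycp2, of the synaptonemal complex, had 33.7 and 12.1 in KO and 32.7 and 20.3 in WT (log2 difference -0.67, adjusted p = 0.784 by limma). The nuclear envelope gene Sun1 had 31.0 and 15.6 in KO and 27.7 and 20.7 in WT, and the deacetylase Hdac2 had 35.2 and 25.1 in KO and 29.3 and 25.9 in WT. Trp53bp1, a sensor of DNA breaks, had 27.6 and 9.53 in KO and 31.6 and 16.2 in WT, and Ube2n, a ubiquitin-conjugating enzyme, had 35.6 and 16.9 in KO and 26.0 and 22.5 in WT. Of 40 genes of the Polycomb complexes and relatives of SCML2, 40 and 38 were open in KO and 35 and 36 in WT as deposited. Among all autosomal genes the shares as deposited were 70.7% and 57.8% in KO and 60.8% and 56.8% in WT. In equal lists 34 and 38 of the 40 were open in KO and 34 and 36 in WT, and the groups overlapped. In the deposited lists 3 of the 40 had a peak in KO only, where 3.20% of all genes with a peak did. These were Pcgf2, a PRC1 subunit (5.68 and 5.20 in KO), Phf19, a PRC2 partner (4.54 and 4.33 in KO), and Sfmbt2, an MBT-domain protein like SCML2 (6.05 and 6.50 in KO). None of the 3 stayed in the pattern in equal lists, because their peaks in KO replicate 1 were not among its 27105 strongest. Ezh2, the PRC2 methyltransferase, had 31.4 and 17.3 in KO and 27.1 and 18.03 in WT, and Rybp, a PRC1 subunit, had 39.7 and 22.5 in KO and 29.3 and 22.9 in WT.

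Promoters of spermatogonial and developmental regulators had peaks in more KO lists than WT lists as deposited. Of 33 genes of stem, progenitor and differentiating spermatogonia, 25 and 18 were open in KO and 15 and 16 in WT, where 70.7% and 57.8% of all autosomal genes were open in KO and 60.8% and 56.8% in WT. Both KO libraries were above both WT libraries. In equal lists the counts were 14 and 18 in KO and 10 and 15 in WT, and the groups overlapped. Lhx1, a homeobox factor of stem spermatogonia, had 11.7 and 5.20 in KO and no peak in WT in either kind of list. Ccnd2 (3.41 and 6.06 in KO), Eomes (3.78 and 4.76 in KO) and Utf1 (6.05 and 4.33 in KO) had a peak in KO only in the deposited lists, where 3.20% of all genes with a peak did. Foxo1, a forkhead factor of stem spermatogonia, had 34.1 and 15.6 in KO and 12.7 and 10.5 in WT. Its log2 difference was 0.67 (SE 0.31, adjusted p = 0.666 by limma), which did not pass. Etv5, an ETS factor of stem cell renewal, had 40.5 and 23.8 in KO and 28.2 and 19.5 in WT (log2 difference 0.08).

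Of 58 Hox and other developmental regulators, 38 and 25 were open in KO and 20 and 17 in WT as deposited. The shares of all autosomal genes open as deposited were 70.7% and 57.8% in KO and 60.8% and 56.8% in WT. In equal lists 10 and 25 of the 58 were open in KO and 9 and 14 in WT, and the groups overlapped. Pax6 (8.33 and 4.33 in KO), Tbx2 (5.68 and 4.76 in KO) and Six2 (4.54 and 4.76 in KO) had a peak in KO only as deposited, where 3.20% of all genes with a peak did. Sox2, a pluripotency factor, had 12.5 and 3.90 in KO and 3.32 and no peak in WT. Gata2 had 17.8 and 8.23 in KO and 8.31 and 7.51 in WT. Hoxc10 went the other way in equal lists, with 7.95 and no peak in KO and 7.20 and 5.64 in WT as deposited. Hoxd8 had 22.7 and 9.53 in KO and 5.54 and 10.9 in WT (log2 difference 0.60, adjusted p = 0.843 by limma), so its groups overlapped. The median log2 difference was 0.30 over the 10 list members in the fold test and 0.17 over 12 spermatogonial genes, against -0.10 over the 10008 genes tested. A gene enters that test only through a merged region within 1 kb of its TSS that had a peak in all 4 libraries. Most members of these lists were therefore not in it.

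Among markers of somatic cells of the testis, more Sertoli and Leydig markers had a peak in each KO list than in each WT list as deposited. The peritubular, endothelial and macrophage groups overlapped. Of 17 Sertoli cell markers, 10 and 9 had a promoter peak in KO and 4 and 6 in WT as deposited, with a summed fold enrichment of 65.5 and 42.4 in KO and 17.2 and 26.7 in WT. Of all autosomal genes, 70.7% and 57.8% had one in KO and 60.8% and 56.8% in WT. In equal lists 3 and 9 were open in KO and 1 and 5 in WT, and the groups overlapped. Inha (9.08 and 3.90 in KO), Gata4 (4.54 and 4.33 in KO) and Gdnf (4.54 and 4.33 in KO) had a peak in KO only as deposited, where 3.20% of all genes with a peak did. Sox9 had 5.30 and 4.33 in KO and no peak and 5.26 in WT, Wt1 had 5.30 and 5.63 in KO and 3.32 and 4.51 in WT, and Cst12, Dhh, Krt18 and Trf had no peak in any library. Dmrt1, which spermatogonia also express, had 10.6 and 7.36 in KO and 5.54 and 4.88 in WT. Of 12 peritubular markers 8 and 4 were open in KO and 5 and 2 in WT (summed fold enrichment 48.4 and 19.5 in KO and 22.7 and 9.02 in WT), with Des at 6.43 and 7.79 in KO and 3.88 and 4.88 in WT. Of 12 endothelial markers 5 and 2 were open in KO and 5 and 1 in WT (21.6 and 9.53 in KO and 20.5 and 4.88 in WT), with Kdr at 4.16 and 4.33 in KO and no peak in WT, and Sox18 at 4.92 and 5.20 in KO and 4.43 and 4.88 in WT. Of 12 Leydig markers 4 and 4 were open in KO and 3 and 3 in WT as deposited. In equal lists 2 and 4 of these were open in KO and 3 and 3 in WT, and the groups overlapped. The highest Leydig markers, Fdxr and Fdx1, are mitochondrial genes of many cell types. Fdxr had 20.8 and 8.23 in KO and 17.2 and 10.5 in WT, and Fdx1 had 17.4 and 8.66 in KO and 9.97 and 6.76 in WT. Of 10 macrophage markers 1 and 0 were open in KO and 1 and 0 in WT. The part of other cells in the difference at spermatogonial and developmental promoters was not tested. Of 22 housekeeping genes, 22 and 22 were open in KO and 21 and 22 in WT, Ywhaz had 32.5 and 20.8 in KO and 21.04 and 15.4 in WT, and Atp5b had 27.2 and 9.09 in KO and 32.7 and 22.5 in WT (log2 difference -1.11, adjusted p = 0.0898 by limma).

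In equal lists a larger share of distal regions than of promoter regions was open in 1 genotype only. Of 35231 autosomal distal regions in equal lists, 1101 (3.13%) were open in both KO libraries and neither WT library, and 1713 (4.86%) in both WT libraries and neither KO library. In the deposited lists the order turned round, with 2335 (1.45%) in KO only and 1093 (0.680%) in WT only, of 160833 regions. Both kinds of list together gave 545 in KO only and 595 in WT only. A total of 3966 regions were open in all 4 equal lists.

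The strongest distal regions with a peak in KO only were mostly within genes. The first, 575 bp in an intron of Gm13152 (chr4:147187323-147187897), had a fold enrichment of 20.8 and 8.66 in KO, and it lies among zinc-finger genes with near-identical copies, so its reads may be shared. An intronic region of Mb21d2 (chr16:28914715-28915409) had 11.4 and 8.23 in KO, and one of Lama3, a laminin chain (chr18:12452371-12452587), had 12.9 and 8.23 in KO. An intronic region of Sfmbt2 (chr2:10529519-10530409) had 23.5 and 7.79 in KO. An intergenic region labelled with Npy, which encodes a neuropeptide, had 17.8 and 7.79 in KO (chr6:49624029-49625067). None of the 5 had a peak in WT, as the selection requires.

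The strongest ones with a peak in WT only were all 5 intergenic. A pair of them carried the label of Slitrk1, a synaptic adhesion gene, with no peak in KO, against 15.5 and 12.4 in WT for chr14:107639014-107639587 and 22.7 and 11.6 in WT for chr14:107075117-107075523. The region labelled with 4930524C18Rik (chr14:114649972-114650704) had no peak in KO, against 15.5 and 11.3 in WT. The region labelled with Usp25, a deubiquitinase (chr16:76917466-76917945), had none in KO, against 12.7 and 11.3 in WT, and that labelled with Ctnna2, a neuronal catenin (chr6:73899772-73900023), had none in KO, against 14.4 and 11.3 in WT.

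The distal regions open in WT only were far from genes. In equal lists their median distance to the nearest TSS was 151 kb and 64.3% were intergenic, whereas regions open in KO only had a median of 45.0 kb and 42.0%. Regions open in all 4 lists had 35.3 kb and 42.9%, and all distal regions had 36.4 kb and 40.3%. In deposited lists the medians were 32.5 kb for KO only and 225 kb for WT only. The contrast in distance therefore had the same direction in both kinds of list, although the contrast in number did not.

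Gene density around a region showed the same contrast in equal lists, in bins chosen after the values were seen. The lowest fold enrichment kept in equal lists was 8.33 and 3.46 in KO and 4.98 and 3.76 in WT. A region open in WT only in these lists can therefore still have a weaker KO peak in the deposited lists. Of 5050 distal regions with at most 2 TSSs within 500 kb, 78 (1.54%) were open in KO only and 854 (16.9%) in WT only. Of 5682 regions with 3 to 5 TSSs, 198 (3.48%) were open in KO only and 329 (5.79%) in WT only. The order turned in the middle bins, with 420 (4.57%) in KO only and 224 (2.44%) in WT only among 9199 regions with 6 to 10 TSSs, and 322 (3.56%) and 148 (1.64%) among 9041 regions with 11 to 20. With 21 or more TSSs, 83 (1.33%) were open in KO only and 158 (2.52%) in WT only. In the most gene-poor bin, 37.0% and 19.2% of regions had a peak in KO and 61.7% and 51.2% in WT, so the groups did not overlap there. In the bin of 6 to 10 TSSs the shares were 61.3% and 40.5% in KO and 42.3% and 34.0% in WT, and with 3 to 5 TSSs 57.6% and 33.4% in KO and 47.7% and 38.7% in WT, and both overlapped. With 11 to 20 TSSs they were 49.6% and 43.9% in KO and 37.7% and 37.9% in WT, so both KO libraries were above both WT libraries. With 21 or more they were 29.8% and 42.5% in KO and 36.7% and 50.9% in WT, and overlapped.

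**Figure D3:**
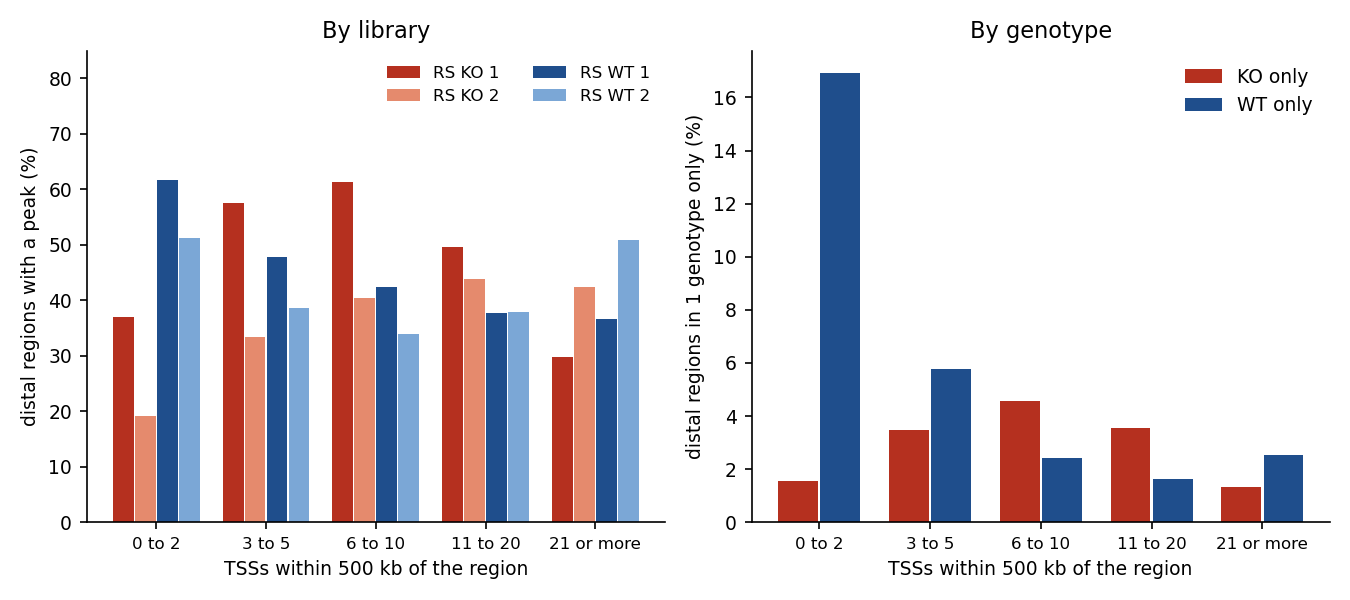
Distal regions in equal-length lists grouped by the number of TSSs within 500 kb, with the percentage that had a peak in each library (left) and the percentage open in 1 genotype only (right). In the bin of 0 to 2 TSSs both KO libraries (37.0% and 19.2%) are below both WT libraries (61.7% and 51.2%), and 1.54% were open in KO only and 16.9% in WT only.

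Fold enrichment was then compared at regions with a peak in all 4 deposited lists, which leaves out every region open in 1 genotype only. Among 9123 autosomal promoter regions, limma called 1 higher in KO (0.0110%) and 18 lower (0.197%) at a Benjamini-Hochberg adjusted p under 0.05. Among 5278 distal regions it called 3 higher (0.0568%) and 65 lower (1.23%). All 18 promoter regions and 63 of the 65 distal regions had both KO libraries below both WT libraries after centring, as did 2116 of all 9123 promoter regions and 723 of all 5278 distal regions tested. Under quantile normalization in place of centring, 0 promoter regions passed in either direction, and 0 distal regions were higher and 3 lower (limma; at an unadjusted p under 0.05 it gave 181 higher and 268 lower promoter regions and 198 higher and 224 lower distal regions). The 3 were those labelled with Cntnap5a, Cdh18 and Gpr37. The SEs and p-values by limma draw on a variance trend over all regions, so they do not measure the spread between libraries at a single region. Without a variance trend 0 promoter regions were higher and 1 lower, and 0 distal regions were higher and 11 lower. The lowest adjusted p by limma was then 0.0365. The calls also rest on the centring of each library on its median, since without it 0 regions passed in either direction (limma; at an unadjusted p under 0.05 it gave 20 higher and 1 lower promoter regions and 31 higher and 7 lower distal regions). They also rest on single WT libraries, since 2 promoter and 10 distal regions were lower without WT replicate 1, and 1 and 8 without WT replicate 2. Without KO replicate 2 there were 127 and 158.

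Among the 10 promoter regions with the largest decrease in KO, 6 belonged to genes with a known product. The region of 2610316D01Rik and Pcdh10, a protocadherin (chr3:45377840-45378484), had a fold enrichment of 10.6 and 5.63 in KO and 27.7 and 15.4 in WT, as deposited. Both KO values were below both WT values, and the centred log2 difference was -1.74 (SE 0.31, adjusted p = 2.9e-05 by limma). Cadm2, an adhesion molecule of synapses, had 14.0 and 8.23 in KO and 33.2 and 21.4 in WT (log2 difference -1.64, adjusted p = 0.000128 by limma). Epha7, an ephrin receptor, had 6.05 and 6.93 in KO and 17.2 and 11.3 in WT, and Ptprz1, a receptor tyrosine phosphatase, had 5.30 and 6.50 in KO and 12.2 and 14.7 in WT. Their log2 differences were -1.42 (adjusted p = 0.0155 by limma) and -1.51 (adjusted p = 0.0132 by limma). Sim1, a transcription factor of the hypothalamus, had 11.7 and 3.46 in KO and 21.6 and 12.02 in WT (log2 difference -1.66). Cypt12, of the family of cysteine-rich perinuclear theca proteins of spermatids, whose members resemble each other in sequence, had 15.1 and 7.79 in KO and 28.2 and 24.04 in WT (log2 difference -1.58).

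The other 4 of the 10 promoter regions with the largest decrease belonged to the transcripts 4930480K15Rik, 1700019M22Rik, Gm20268 and 4930428E07Rik, with log2 differences from -1.82 to -1.42. 4930480K15Rik had 13.2 and 3.46 in KO and 21.04 and 17.3 in WT (log2 difference -1.82, SE 0.32, adjusted p = 2.4e-05 by limma). Over all 18 lower promoter regions the median was -1.42, against -0.09 over all 9123 tested, and the median number of TSSs within 500 kb was 2, against 16. Msra, a methionine sulfoxide reductase, was the 1 promoter region that was higher. It had 34.4 and 17.8 in KO and 8.86 and 9.39 in WT, with no overlap, and a log2 difference of 1.12 (SE 0.31, adjusted p = 0.0461 by limma).

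Distal regions with a lower fold enrichment in KO were again in gene-poor stretches. The largest decrease was at a region labelled with 4930503E24Rik (chr10:124087129-124087849), 382 kb from the nearest TSS, with 9.08 and 5.20 in KO and 20.5 and 27.8 in WT. The log2 difference was -2.12 (SE 0.31, adjusted p = 1.7e-07 by limma). Without a variance trend its adjusted p was 0.0365 by limma. A region in an intron of Grik1, a glutamate receptor subunit (chr16:88225267-88226089), had 4.92 and 3.46 in KO and 18.3 and 10.5 in WT (log2 difference -2.07). An intergenic region labelled with Efnb2, an ephrin ligand (chr8:5941179-5941759), had 7.19 and 4.33 in KO and 19.4 and 16.2 in WT (log2 difference -1.99). The next were labelled with Mgat4c, Cdh18, Cntnap5a, Gm5803, Reep3, Mettl4 and Gpr37, with log2 differences from -1.98 to -1.83, and in each of them both centred KO values were below both centred WT values. At Mettl4 (chr17:93826901-93827318) the fold enrichment was 11.7 and 4.33 in KO and 24.9 and 16.5 in WT, at 628 kb from the nearest TSS.

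Some genes were the label of a pair of lower regions each. The 83 lower regions carried 75 labels, and 8 labels occurred with 2 regions, among them Cntnap5a, Nlgn1, Grm7, Tusc1 and Gm5803. The Cntnap5a regions had log2 differences of -1.87 and -1.78, at 123 and 1395 kb from the nearest TSS. The Nlgn1 regions had -1.57 and -1.40. By chromosome, the largest number of lower regions was 12 of 697 tested on chromosome 10, and chromosome 19 had 0 of 494.

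Over the 65 lower distal regions, 75.4% were intergenic, the median distance to a TSS was 382 kb and the median number of TSSs within 500 kb was 1. Over all 5278 distal regions tested, 40.3% were intergenic, and the medians were 33.1 kb and 10. In the most gene-poor bin 45 of 536 distal regions (8.40%) were lower and 1 was higher, and with 21 or more TSSs 1 of 966 (0.104%) was lower. The median log2 difference over that gene-poor bin was -0.09, with quartiles of -0.56 and 0.30. The 3 higher distal regions were an intergenic one labelled with the microRNA gene Mir148a (30.7 and 8.66 in KO and 6.09 and 4.13 in WT, log2 difference 1.38), one in an intron of Hs3st3b1, a heparan sulfate sulfotransferase (34.8 and 20.4 in KO and 8.31 and 9.02 in WT, log2 difference 1.30), and one labelled with Gatsl2 (37.5 and 17.3 in KO and 8.86 and 9.39 in WT, log2 difference 1.16). Their adjusted p-values by limma were 0.0301, 0.00791 and 0.0301.

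**Figure D4:**
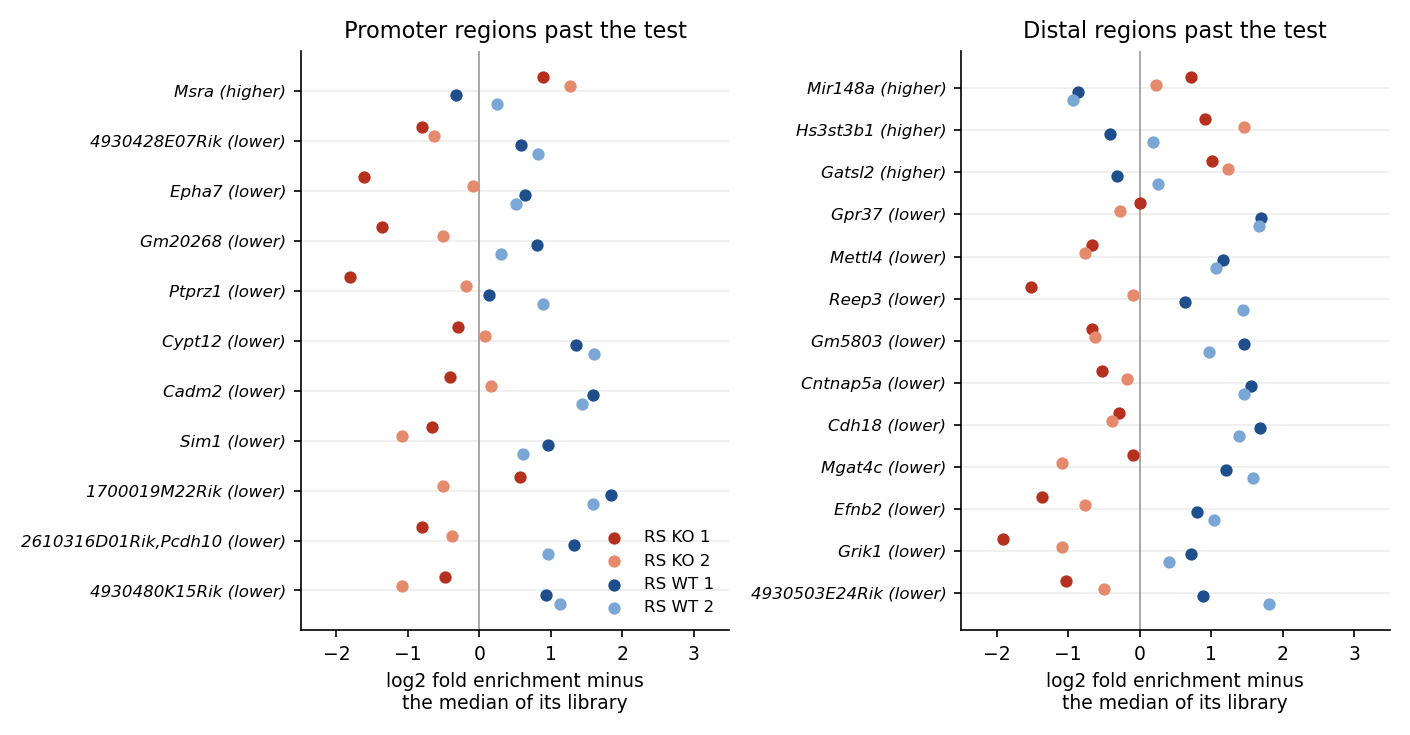
Fold enrichment in each library of the promoter regions (left) and distal regions (right) named by size of change among those past the limma test, as log2 minus the median of that library over 14502 regions; the label gives the gene and the direction in KO. The log2 differences run from -2.12 at 4930503E24Rik to 1.38 at Mir148a.

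The same regions were read in the PS libraries of both genotypes, which had no part in choosing them. PS lists of equal length held 21878 peaks each. Of the 1713 distal regions open in WT only in round spermatids, 14.2% and 11.4% had a peak in KO spermatocytes and 54.8% and 34.8% in WT spermatocytes. Of the 1101 open in KO only, 23.9% and 21.7% had a peak in KO spermatocytes and 15.3% and 13.4% in WT spermatocytes. In both sets the genotype groups did not overlap and lay in the direction seen in round spermatids, at the smallest p an exact permutation test of 2 against 2 allows, 0.333. Of the 3966 regions open in all 4 round spermatid lists, 58.9% and 52.3% had a peak in KO spermatocytes and 72.1% and 58.1% in WT spermatocytes, and the groups overlapped.

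Read in PS lists as deposited, which hold from 21878 to 105751 peaks, the regions open in WT only had 35.7% and 11.4% in KO spermatocytes and 90.4% and 38.5% in WT spermatocytes, again with no overlap, and those open in KO only had 72.5% and 21.7% in KO spermatocytes and 58.3% and 16.0% in WT spermatocytes, which overlapped.

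Promoters had the same order in PS lists of equal length. Of 185 genes with a promoter peak in WT only, 38.9% and 41.1% had one in KO spermatocytes and 60.0% and 55.7% in WT spermatocytes. Of 168 with a peak in KO only, 53.0% and 53.0% had one in KO spermatocytes and 31.0% and 42.3% in WT spermatocytes. As deposited the groups overlapped for both sets of promoters. Khdrbs2 had 4.68 and 5.98 in KO spermatocytes and 27.9 and 15.6 in WT spermatocytes, and Slitrk5 had 4.68 and 3.80 in KO spermatocytes and 11.9 and 8.04 in WT spermatocytes, and in both the KO values were below the WT values at that stage too. Bai3 had 8.32 and 6.52 in KO spermatocytes and 8.26 and 8.04 in WT spermatocytes, where the groups overlapped.

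**Figure D5:**
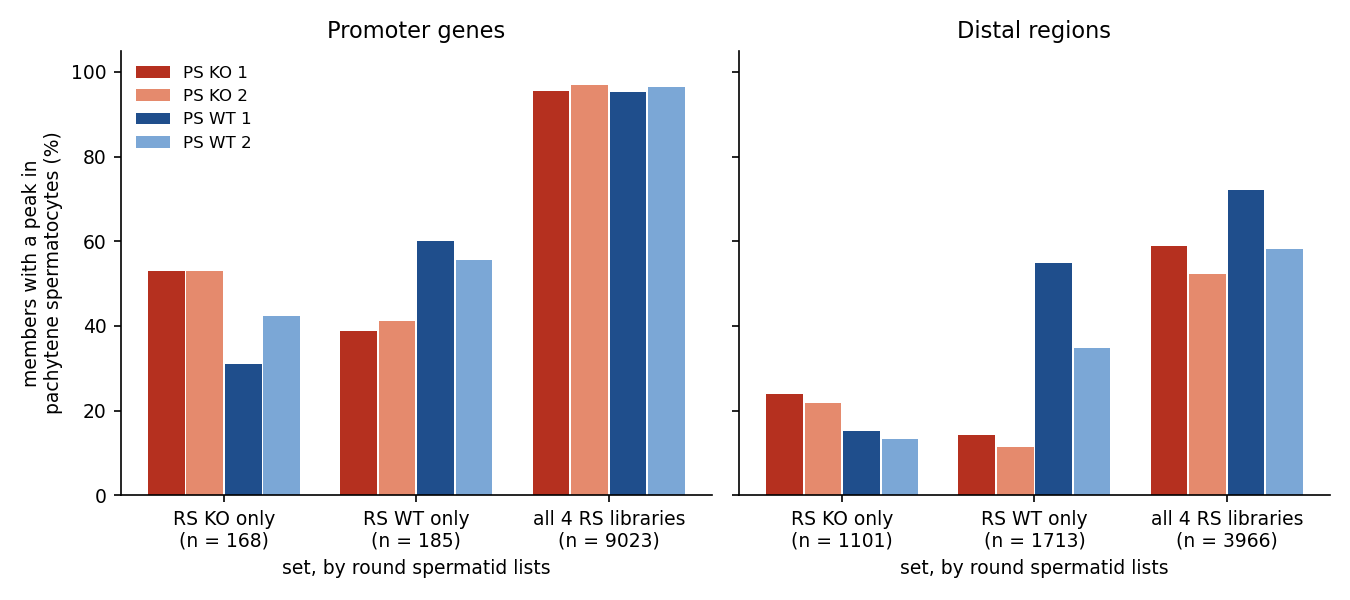
Percentage of genes (left) and distal regions (right) with a peak in each pachytene spermatocyte library, in lists of 21878 peaks, for sets defined in round spermatids as open in KO only, in WT only or in all 4 libraries. Of distal regions open in WT only, 14.2% and 11.4% had a peak in KO spermatocytes and 54.8% and 34.8% in WT spermatocytes.

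Regions with a lower fold enrichment in KO round spermatids also had lower values in KO spermatocytes, as far as they had a peak there. Of the 18 promoter regions, 17 and 12 had a peak in KO spermatocytes and 18 and 18 in WT spermatocytes. Of all 9123 promoter regions tested, 8947 and 8586 had one in KO spermatocytes and 8984 and 8621 in WT spermatocytes. The 12 with a peak in all 4 PS libraries had a median centred log2 difference of -0.56, all 12 below 0, against -0.01 over 8346 tested promoter regions with a peak in all 4. Of those 8346, 4324 were below 0. Of the 65 distal regions, 47 and 15 had a peak in KO spermatocytes and 65 and 65 in WT spermatocytes. Of all 5278 distal regions tested, 4531 and 2574 had one in KO spermatocytes and 4867 and 3002 in WT spermatocytes. The 15 with a peak in all 4 had a median of -0.79, with 14 below 0, against 0.02 over 2093 tested distal regions. Of those 2093, 1003 were below 0. At the region labelled with Cntnap5a neither KO spermatocyte library had a peak, against 29.9 and 10.6 in WT spermatocytes. Epha7 had 6.24 and 7.06 in KO spermatocytes and 14.97 and 12.6 in WT spermatocytes. Cadm2 had 32.2 and 16.8 in KO spermatocytes and 35.6 and 20.6 in WT spermatocytes, a difference of -0.21. Whether the differences between genotypes changed from spermatocytes to round spermatids was not tested.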

How the data were processed

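Peak lists of ATAC-seq libraries from round spermatids were analysed, 2 Scml2-KO and 2 wild type. Reads were aligned with Bowtie 1.1.1 and peaks called with MACS2 2.1.0.20140616 on mm10, per the submitters' processing notes. There is 1 deposited list per library. Each line is a summit, and lines of equal chromosome, start and end were joined, 379177 lines into 274614 peaks. The deposited fold enrichment is a ratio of the pileup signal, plus 1, to 1 constant background per library, as tested on the deposited pileup column. The deposited −log10 q ranked the peaks, and the deposited −log10 p was not used further. No file gives reads per library, so depth is unknown.

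Peaks overlapping by 1 bp or more were merged. TSS positions came from the authors' gene annotation of each peak, for genes annotated there alone. For 1412 genes annotated only jointly with another gene, RefSeq was used, and it held 789 of them. The others had no TSS. Equal lists took the 27105 peaks of highest −log10 q per library. Log2 fold enrichment of regions with a peak in all 4 libraries, centred on each library's median, was tested with limma 3.58.1 (R 4.3.3), with a variance trend and Benjamini-Hochberg adjustment. On simulated data for KO against WT with 200 of 14502 regions changed, 4.0% of changes of 1 on the log2 scale were recovered, 80.5% of 2 and 96.0% of 3. The test is therefore weak for changes of 1. Tables were made with pandas 2.3.3. The 95% Wilson intervals of shares of peaks cover counting error only and were narrower than the differences between libraries.

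The members and lists were chosen with earlier results of these data known. Named genes are the 10 per direction of highest lower fold enrichment with a peak in 1 genotype only in both kinds of list, and the 5 distal regions likewise. Also named are the 10 regions per class and direction of largest change past the test, 3 regions per class of highest value for scale, and, per list, members that were called or open in 1 genotype only and the 2 of highest mean value with a peak in all 4 libraries. Other members and lower regions, Nlgn1 among them, were named after their values were seen. Some genes that the rule names are not reported here. Sex chromosomes entered the limma test but are not described.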

Additional observations from a re-analysis of the deposited data

How the results depend on the processing

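Presence in 1 genotype depended on the lists. For genes in KO only and WT only, the counts of 168 and 185 became 480 and 83 with deposited lists, 598 and 42 at a −log10 q of 5 or more, and 552 and 46 at a fold enrichment of 5 or more. For distal regions, 1101 and 1713 became 2335 and 1093 with deposited lists, while they were 935 and 443 at the limit on q and 904 and 509 at the limit on fold, so the order of the equal lists turned round in all 3. Leaving out 1 library loosens the pattern by construction, and gave 355 to 1099 genes in KO only, 414 to 522 in WT only, 1756 to 7530 distal regions in KO only and 2055 to 6755 in WT only. The difference in the share of peaks near a TSS changed sign to -5.20 points with deposited lists, -7.39 at the limit on q and -6.37 at the limit on fold, and ran from -5.005 to 5.57 points with 1 library left out (-1.33 without WT replicate 1), where an exact permutation test of so few libraries cannot pass 0.05. Of the 20 named genes, 3 lost their pattern with a 500 bp window (Angptl6, Zfp827 and Robo2) and 1 with a 100 bp overlap (Angptl6). The selection of these genes and the looser pattern fix the result under the other settings.

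Counts of promoter regions higher and lower and of distal regions higher and lower (1, 18, 3 and 65) became 0, 0, 0 and 3 under quantile normalization, 0 throughout without centring, 3, 36, 9 and 328 with a peak in 3 of 4 libraries or more, and 0, 1, 0 and 11 without a variance trend. At an unadjusted p under 0.05, limma gave 181, 268, 198 and 224 under quantile normalization and 98, 199, 235 and 215 without a variance trend. With 1 library left out they ran from 0 to 2, 1 to 127, 0 to 7 and 8 to 158, the lone library being assumed to vary like the others. The causes were not tested. No named region reversed. Libraries of the same number share only that number in the labels. The deviations of KO and WT replicate 1 from their genotype means correlated at 0.31 over 14502 regions. Those of replicate 2 mirror them by construction and give no further value. A replicate block gave 6, 64, 27 and 129, all 24 named regions passing.

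Limits are the small number of libraries, unknown depth, and the list of KO replicate 1, which is 164060 peaks long and has a median fold enrichment of 18.5 at the tested regions, against 7.36 in KO replicate 2 and 11.1 and 7.89 in WT.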
